A study of Mus musculus with 28 samples.

Results

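The 39 genes of the mouse Hox clusters were followed in male germ cells of Stra8 knockout (KO) and wild-type (WT) mice after they were given retinoic acid. They were taken as every entry of the gene tables named Hoxa, Hoxb, Hoxc or Hoxd plus a number, which gave 39 of 43253 features. The set held 11 Hoxa, 10 Hoxb, 9 Hoxc and 9 Hoxd genes. A further 6 antisense entries were left out of the set and appear only beside the genes they overlap.

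Mice of both genotypes, on a background of C57BL/6 x 129s4/SvJae, were given WIN 18,446 for 7 days, which stops the making of retinoic acid. They were collected without retinoic acid (0 h) or 12, 18, 48, 72, 96 or 120 h after retinoic acid, and their testicular germ cells were sorted by the reporter PIWIL2-eGFP. PolyA RNA was sequenced in 2 libraries for each of the 14 groups of genotype and time, 28 in all. The ages of the mice, the part of Stra8 removed in the KO and whether the 2 libraries of a group came from separate animals were not stated in the sources used here. The p-values therefore measure only the spread between these libraries, which may be technical.

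Hox genes encode homeodomain transcription factors that give cells their position along the body axis of the embryo. Each cluster is read in order: genes at the low-numbered end respond first to retinoic acid, through receptors of the RAR family, while polycomb proteins hold the clusters silent where they are not used. HOX proteins bind DNA together with PBX and MEIS partners. In the testis, retinoic acid also drives spermatogonia to differentiate and induces Stra8, a germ cell factor needed for meiosis.

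Promoters were looked at for short motifs, because the members that moved with retinoic acid and those that differed between genotypes could then be set beside the letters in front of them. RefSeq start sites on GRCm38.p6 gave 24 promoters for 22 of the 39 genes, of which the 250 bases before the start were searched on both strands. The PBX-HOX core TGATNNAT lay in promoters of Hoxa2, Hoxb1, Hoxb8 and Hoxd11, against 7.68% of all 32851 promoters of that length. The receptor half-site AGGTCA lay in those of Hoxb4, Hoxc4, Hoxd3, Hoxd4, Hoxd8 and Hoxd10, against 14% of all promoters. CNCCTCAG, a motif reported for STRA8, lay in those of Hoxa11 and Hoxd1 (6.42% of all), and the homeodomain core TAATTA in those of Hoxd11 (4.84% of all). No Hox promoter held a direct repeat of receptor half-sites spaced by 1, 2 or 5 bases, which 0.164, 0.174 and 0.0883% of all promoters held; such repeats can contain the single half-site. A half-site of a repeat was AGGTCA with the first base A or G and the third G or T. The Hox promoters had a median GC content of 58.6%, against 52.4% over all promoters, and a median CpG ratio (observed over expected from base composition) of 0.721, against 0.373. The promoters of 5 members are shown, 5′ to 3′ on the gene's strand. Capitals mark TGATNNAT in Hoxb1 (chr11:96365508-96365757, plus strand) and Hoxb8 (chr11:96281655-96281904, plus strand; the match is on the other strand), and AGGTCA, which reads TGACCT on the other strand, in Hoxb4 (chr11:96318017-96318266, plus strand) and Hoxc4 (chr15:103034145-103034394, plus strand). Hoxa5 (chr6:52204588-52204837, minus strand) held none of the searched motifs in this window and is shown as a member that rose after retinoic acid in the KO.
Hoxb1: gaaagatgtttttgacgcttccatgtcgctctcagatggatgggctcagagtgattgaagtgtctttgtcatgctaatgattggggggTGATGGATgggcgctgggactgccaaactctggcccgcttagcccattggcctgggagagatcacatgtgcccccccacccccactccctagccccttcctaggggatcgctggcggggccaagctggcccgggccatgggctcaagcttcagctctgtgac
Hoxb8: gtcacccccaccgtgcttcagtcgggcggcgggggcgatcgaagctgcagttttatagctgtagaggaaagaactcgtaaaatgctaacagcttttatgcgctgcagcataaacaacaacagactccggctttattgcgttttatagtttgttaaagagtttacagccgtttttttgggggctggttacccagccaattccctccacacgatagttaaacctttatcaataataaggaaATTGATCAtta
Hoxb4: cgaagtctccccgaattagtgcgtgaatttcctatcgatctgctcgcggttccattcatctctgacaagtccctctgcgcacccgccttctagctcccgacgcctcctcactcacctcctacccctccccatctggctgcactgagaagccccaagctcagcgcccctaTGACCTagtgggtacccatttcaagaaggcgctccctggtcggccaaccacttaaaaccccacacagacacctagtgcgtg
Hoxc4: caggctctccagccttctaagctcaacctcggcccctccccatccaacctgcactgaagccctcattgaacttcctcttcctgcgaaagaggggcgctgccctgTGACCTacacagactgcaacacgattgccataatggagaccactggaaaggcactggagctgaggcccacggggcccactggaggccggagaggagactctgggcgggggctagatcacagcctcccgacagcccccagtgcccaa
Hoxa5: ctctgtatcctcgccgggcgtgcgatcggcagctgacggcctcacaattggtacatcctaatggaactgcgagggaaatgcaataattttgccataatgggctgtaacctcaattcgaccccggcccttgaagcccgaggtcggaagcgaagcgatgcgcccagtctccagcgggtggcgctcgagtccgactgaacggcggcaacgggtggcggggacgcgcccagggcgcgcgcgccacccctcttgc

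Total counts were 913055 to 9507928 per KO library and 5752475 to 10135820 per WT library. In KO at 72, 96 and 120 h, 1 of the 2 libraries was shallow, with 1078460, 913055 and 1030025 reads; they are called the 3 shallow KO libraries. The 39 members together had 56 to 1094 reads per KO library and 119 to 595 per WT library, so most single members rest on few reads. Stra8 was at 0 to 62.2 CPM (reads of a gene per 1000000 reads of its library) in the KO libraries and at 7.66 to 1043 CPM in the WT libraries. KO libraries were below both WT libraries of their time throughout, but the library labelled KO at 48 h in the first count table had 62.2 CPM of Stra8, against 2.10 CPM in the other KO library and 97.2 and 199.6 CPM in the WT libraries of that time. Stra8 reads outside the deleted part would not test the label. Mitochondrial transcripts were 4.56 to 8.56% of reads in KO libraries and 1.98 to 6.79% in WT libraries, and their part in the Hox results was not tested. Calls between genotypes are also given without this library and without the shallow ones, but sums and counts of non-overlapping libraries are not.

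Summed Hox levels were higher in KO germ cells than in WT germ cells at every time. Summed over the 39 genes, KO libraries had 51.2, 78.4 and 149.3 CPM (lowest, median, highest of 14), against 15.7, 28.01 and 68.0 CPM in WT libraries. Within a time, both KO sums lay above both WT sums at 7 of 7 times. The ratio of the mean sums, KO over WT, was 1.56 (0 h), 2.73 (12 h), 2.42 (18 h), 2.24 (48 h), 3.32 (72 h), 2.84 (96 h) and 3.98 (120 h). The deposited counts came as a pair of tables, each holding 1 library of every group; the ratio over all times was 2.43 in the first and 2.62 in the second. By table, the ratio at 0 h was 1.13 in the first and 2.13 in the second. At 72 h it was 5.08 in the first and 2.50 in the second, where the WT sums were 15.7 and 33.4 CPM. KO libraries are numbered the other way in the deposited CPM, so which KO library goes with which WT library is not settled. In bulk RNA of sorted cells, fewer cells of a type and less RNA per cell cannot be told apart.

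**Figure D1:**
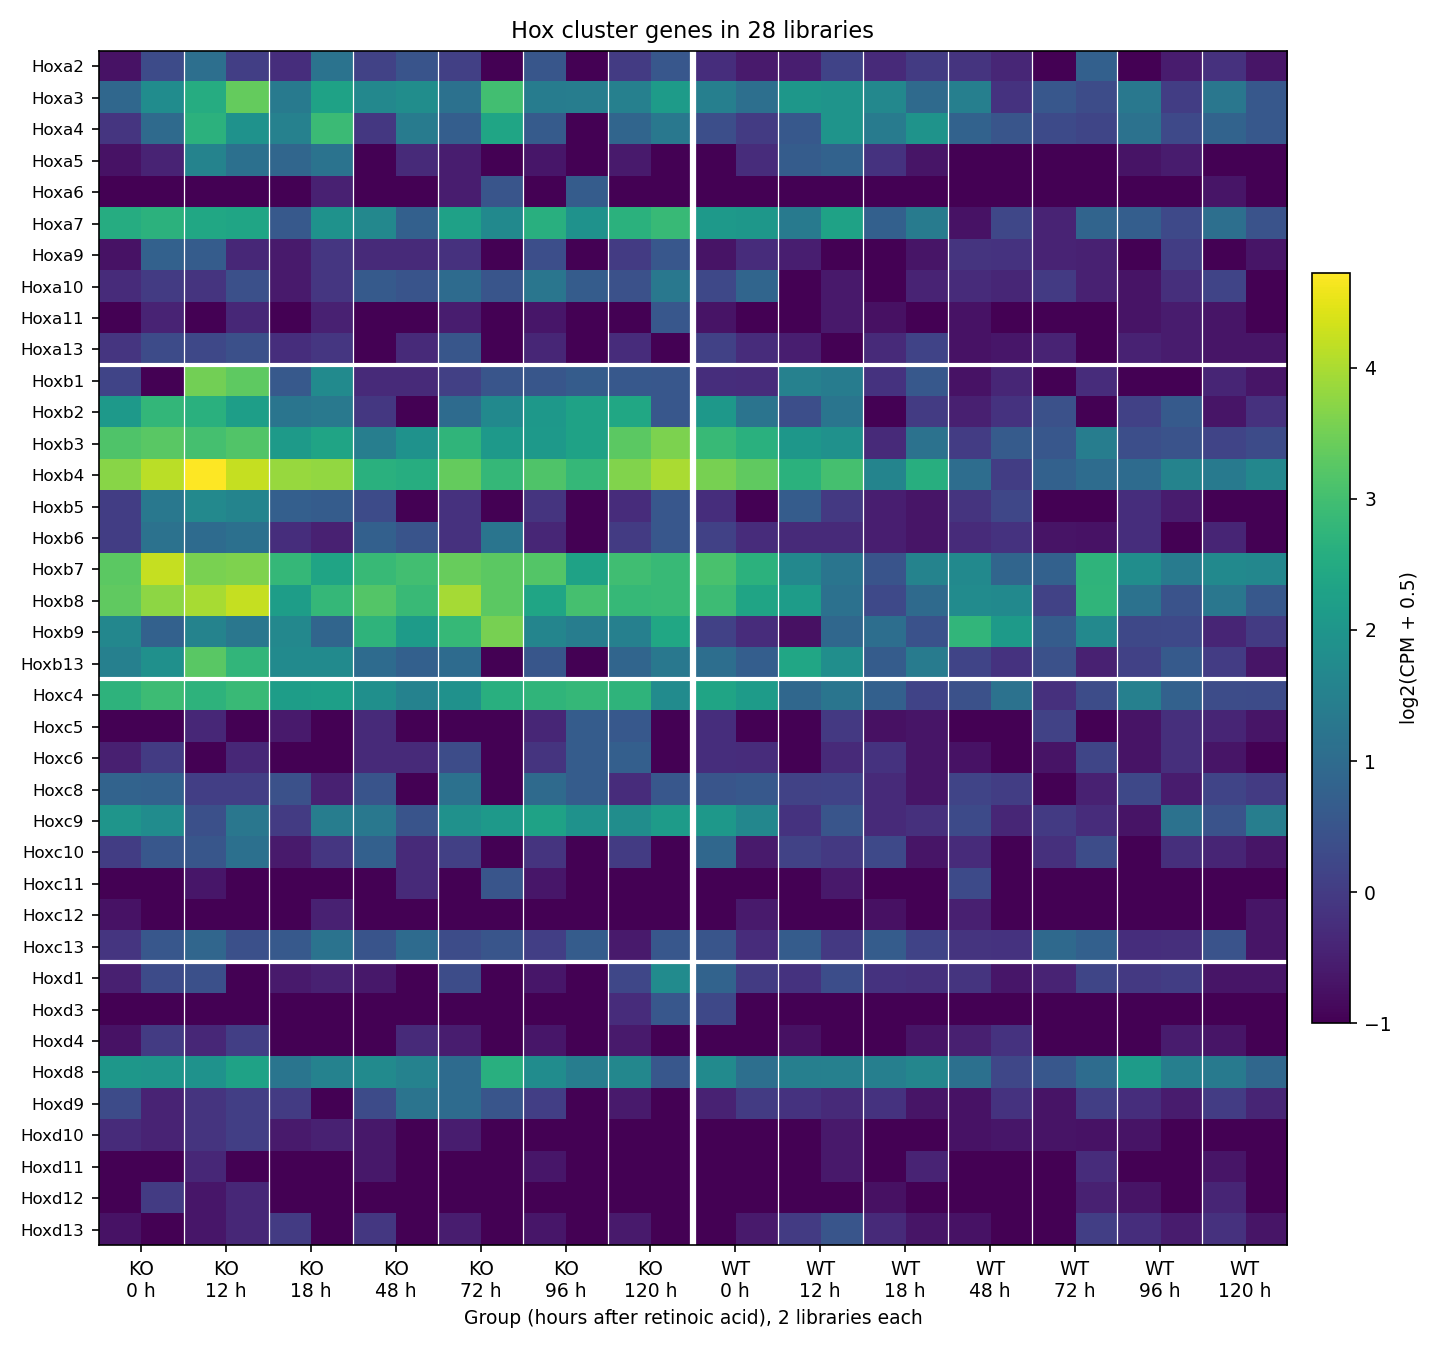
Level of Hox genes (rows, by cluster and number) in each of the 28 libraries (columns, KO on the left and WT on the right, 2 libraries per time) as log2(CPM + 0.5). Hoxb4 and Hoxb3 are darker in every later WT column than at 0 h, while Hoxb4 lies between 5.39 and 25.9 CPM across the KO columns, and most Hoxd rows are near 0 CPM in both genotypes.

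The Hoxb cluster gave 58.9% of the Hox reads, as summed CPM not divided by length, in KO libraries and 49.4% in WT libraries. Hoxa gave 23.2% in KO and 26.5% in WT, Hoxc 12.5% in KO and 14.1% in WT, and Hoxd 5.41% in KO and 9.97% in WT. Per kilobase of annotated exon, Hoxb7 was at 3.84, Hoxb4 at 3.15, Hoxb8 at 2.30 and Hoxc4 at 1.29 CPM per kb over all 28 libraries. Of the 39 members, 12 had a read in every library, and 8 had fewer than 20 reads in all 28 libraries together. Only 23 passed the filter on low counts and were tested. The other 16 were Hoxa6, Hoxa9, Hoxa11, Hoxa13, Hoxc5, Hoxc6, Hoxc10, Hoxc11, Hoxc12, Hoxd1, Hoxd3, Hoxd4, Hoxd10, Hoxd11, Hoxd12 and Hoxd13, and none of them averaged more than 0.473 CPM over the 28 libraries.

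**Figure D2:**
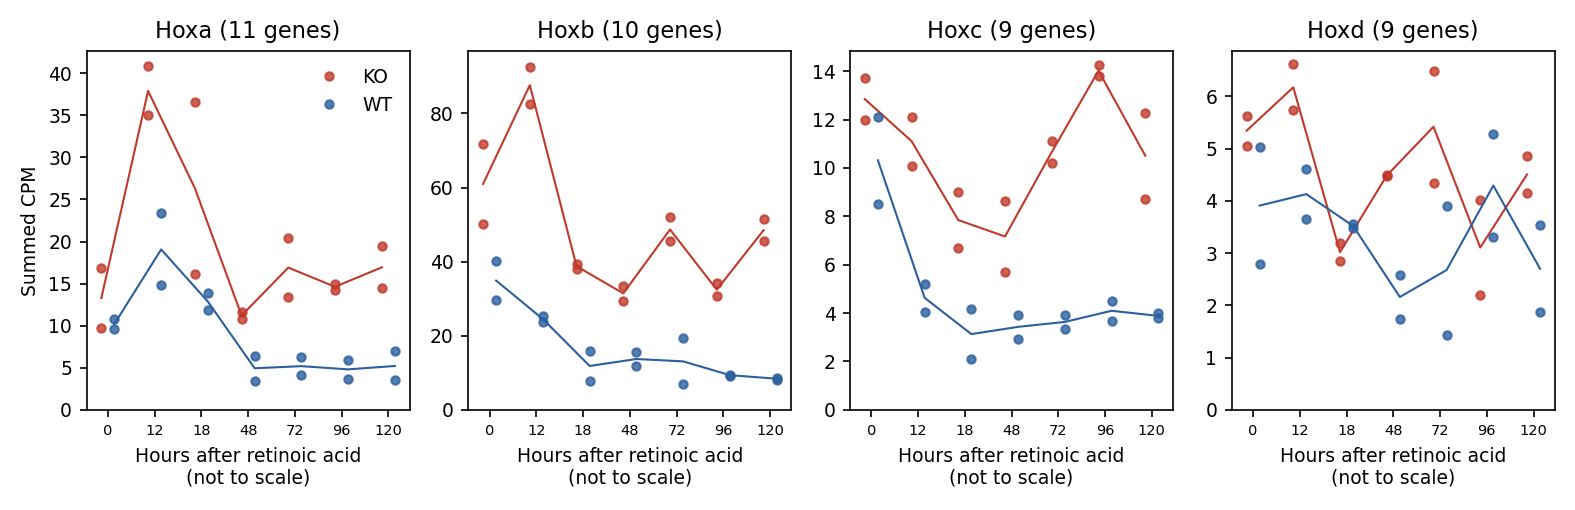
Summed CPM of the members of each cluster (panels) by hours after retinoic acid, evenly spaced and not to scale. Points are libraries, lines join the means of 2 libraries, and KO points are drawn left of WT points. Both KO sums lie above both WT sums at 7 of 7 times for Hoxb, at 6 of 7 for Hoxa and Hoxc and at 5 of 7 for Hoxd.

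Genotype was compared first as the mean over the 7 times. Of the 39 members, 23 were tested. Of these, 17 rose in KO relative to WT and none fell (quasi-likelihood test of edgeR, with p adjusted by Benjamini-Hochberg over 17519 genes, threshold 0.05). Of all tested genes, 17.4% rose and 20.1% fell in this comparison. The 17 were all 10 Hoxb genes, 5 Hoxa genes (Hoxa3, Hoxa5, Hoxa7 and Hoxa10 among them) and 2 Hoxc genes (Hoxc4 and Hoxc9). Of these, Hoxa5, Hoxa10, Hoxb5 and Hoxb6 passed the filter on low counts through KO libraries alone, which favours a rise in KO. Their highest WT libraries had 1.228, 1.31, 1.085 and 0.572 CPM. Both tested Hoxd genes missed the threshold. Hoxd8 and also Hoxa2 passed with reads recovered from the deposited CPM in place of the 3 shallow KO libraries. Counting tested and untested members alike, mean CPM was higher in KO for 36 of 39, against 49.9% of the features with a read; the exceptions were Hoxc12, Hoxd11 and Hoxd13. In KO 32 of 39 were higher within the first table of counts (48.8% of features) and 36 of 39 within the second (49.8%).

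**Figure D3:**
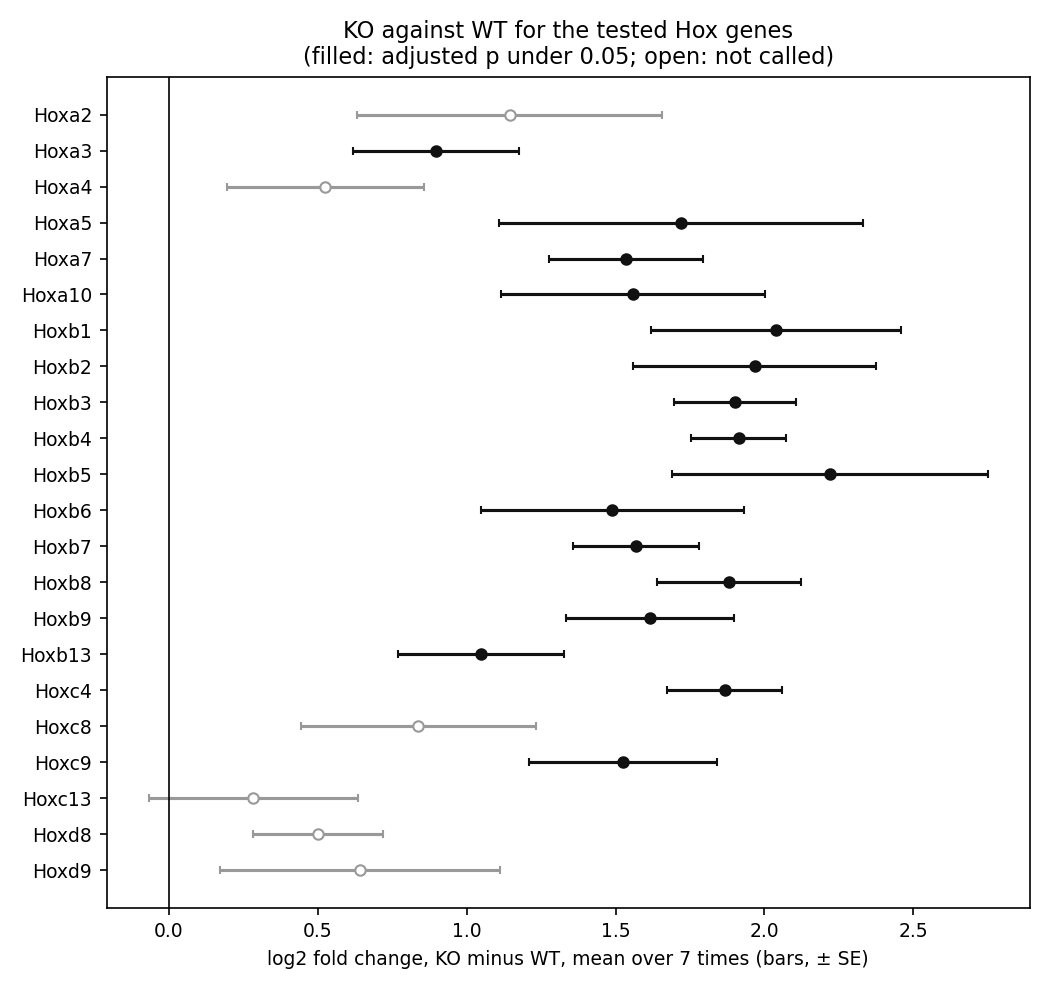
Log2 fold change, KO minus WT, as the mean over the 7 times for tested Hox genes, with bars of ± 1 approximate SE. Filled points passed the adjusted threshold of 0.05 and open points did not. All 10 Hoxb genes are filled, from Hoxb13 at 1.05 to Hoxb5 at 2.22.

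Hoxb4, a homeodomain factor known for its role in blood stem cell expansion, lies at chr11:96318267-96321638 (plus strand, GRCm38, GENCODE annotation). It had 5.39, 12.3 and 25.9 CPM (lowest, median, highest) in the 14 KO libraries and 0.532, 2.46 and 11.2 CPM in the 14 WT libraries. At every time both KO libraries lay above both WT libraries, and the ranges overlapped only across times. The mean log2 fold change was 1.91 ± 0.16 (edgeR adjusted p = 6.19e-09). Values after ± are an approximate SE throughout, the absolute log2 fold change divided by the square root of the test's F statistic. Where a group had 0 reads, this SE also depends on the small count added in the fit. Hoxc4, its paralog on the Hoxc cluster (chr15:103018934-103036852, plus strand), had 2.40, 5.78 and 7.10 CPM in KO and 0.360, 1.20 and 4.57 CPM in WT (log2 fold change 1.87 ± 0.19, edgeR adjusted p = 1.46e-07).

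Hoxb3, which patterns the hindbrain and pharyngeal region of the embryo, had 2.24, 5.42 and 11.7 CPM in KO libraries and 0.298, 1.01 and 6.75 CPM in WT libraries. Its mean log2 fold change was 1.90 ± 0.20 (edgeR adjusted p = 2.36e-07). Of its exon length, 52.9% overlaps the antisense transcript Hoxb3os, which averaged 3.09 CPM in KO and 0.847 CPM in WT and also rose, by 2.06 ± 0.31 on the log2 scale (edgeR adjusted p = 2.19e-05). Hoxb2, which acts in the hindbrain and overlaps the same antisense transcript over 27.3% of its exons, had 0, 3.20 and 6.37 CPM in KO and 0, 0.532 and 3.66 CPM in WT, a log2 fold change of 1.97 ± 0.41 (edgeR adjusted p = 0.00062). No source used here says whether the counting used strand, so reads of these genes and of Hoxb3os cannot be told apart.

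The middle of the Hoxb cluster behaved alike. Hoxb8, which acts in myeloid progenitors and in microglia, had 4.02, 8.16 and 18.2 CPM in KO libraries and 0.600, 1.81 and 7.09 CPM in WT libraries (log2 fold change 1.88 ± 0.24, edgeR adjusted p = 3.17e-06). Hoxb7 had 4.38, 8.10 and 18.1 CPM in KO and 0.895, 2.64 and 8.01 CPM in WT (1.57 ± 0.21, edgeR adjusted p = 5.57e-06). Hoxa7, its paralog on the Hoxa cluster, had 1.00, 4.51 and 6.80 CPM in KO and 0.104, 1.25 and 4.45 CPM in WT (1.54 ± 0.26, edgeR adjusted p = 7.16e-05); 20.4% of its exon length overlaps the antisense transcript Hoxaas3. These 3 genes had a read in every library, and the highest WT libraries overlapped the KO range.

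Hoxb5 and Hoxb6 were low, at 0, 0.636 and 2.73 CPM for Hoxb5 in KO and 0, 0.186 and 1.08 CPM in WT, and at 0, 0.712 and 1.85 CPM for Hoxb6 in KO and 0, 0.274 and 0.572 CPM in WT. Hoxb5, a vascular and enteric nerve patterning factor, had a log2 fold change of 2.22 ± 0.53 (edgeR adjusted p = 0.00246) and Hoxb6 of 1.49 ± 0.44 (edgeR adjusted p = 0.0105). The call of Hoxb5 was lost without KO replicate 1 at 48, 72 or 96 h, and that of Hoxb6 without KO replicate 1 at 96 h; in each case the KO library left at that time had 0 reads of the gene. Both WT libraries of Hoxb5 were at 0 at 72 and 120 h, so its fitted fold change depends on the small count added in the fit.

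At the high-numbered end, Hoxb9 had 1.22, 2.59 and 11.1 CPM in KO libraries and 0.0987, 0.777 and 6.32 CPM in WT libraries (1.62 ± 0.28, edgeR adjusted p = 0.000108). Hoxc9 had 0.503, 2.96 and 4.42 CPM in KO and 0.115, 0.603 and 3.66 CPM in WT (1.53 ± 0.32, edgeR adjusted p = 0.000602). Hoxb13, known for its role in prostate and tail development, had 0, 1.73 and 9.14 CPM in KO and 0.125, 0.942 and 4.74 CPM in WT (1.05 ± 0.28, edgeR adjusted p = 0.00493), and its call was lost without KO replicate 1 at 72 or at 96 h, which left a KO library with 0 reads. Hoxa10, a factor of the female reproductive tract, had 0.168, 0.864 and 1.94 CPM in KO and 0, 0.256 and 1.31 CPM in WT (1.56 ± 0.44, edgeR adjusted p = 0.00809).

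Among the remaining Hoxa genes, Hoxa3, which patterns the thymus and parathyroid, had 1.37, 2.81 and 9.92 CPM in KO libraries. In WT libraries it had 0.399, 1.77 and 3.55 CPM. Of its exon length, 25.4% overlaps annotated genes on the other strand and 8.0% on the same strand, so its counts are uncertain. Its log2 fold change was 0.90 ± 0.28 (edgeR adjusted p = 0.0142), and the call was lost without KO replicate 1 at 96 h (adjusted p = 0.0513). Hoxa5, which acts in lung development, was low at 0, 0.177 and 2.46 CPM in KO and 0, 0.0574 and 1.23 CPM in WT. Its log2 fold change of 1.72 ± 0.61 (edgeR adjusted p = 0.0319) did not pass with DESeq2 (adjusted p = 0.0806), without the filter on low counts (adjusted p = 0.0613), or without KO replicate 1 at 72, 96 or 120 h or replicate 2 at 48 h. Both WT libraries of Hoxa5 were at 0 at 48, 72 and 120 h, so this fitted value too depends on the small count added in the fit.

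The 6 tested members that missed the threshold also had positive estimates, from 0.28 ± 0.35 for Hoxc13 to 1.14 ± 0.51 for Hoxa2. Among them, Hoxa2, Hoxc8 and Hoxd9 passed the filter on low counts through KO libraries alone, which favours a positive estimate. Their highest WT libraries had 1.19, 0.983 and 0.543 CPM. Hoxd8, the highest Hoxd gene, had 0.971, 2.75 and 5.56 CPM in KO libraries and 0.665, 2.14 and 3.90 CPM in WT libraries. Its log2 fold change was 0.50 ± 0.22 (edgeR adjusted p = 0.0741), and the KO and WT ranges overlapped broadly. The untested Hoxd3 and Hoxd4 overlap each other, and 62.3 and 52.3% of their exon length is shared with annotated genes on the same strand, so their counts are uncertain.

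Markers of some somatic cell types and of germ cell stages moved between the genotypes as well, and their part in the Hox result was not tested. Of all tested genes, 17.4% rose and 20.1% fell in this comparison, the mean over the 7 times. Of the 12 Sertoli cell markers, 6 rose in KO and none fell, and their summed level was 66.4 to 940 CPM in KO libraries (highest in the shallow library at 72 h) and 45.7 to 257 CPM in WT libraries. Of the 11 tested markers of peritubular myoid and stromal cells (13 listed), 3 rose and none fell, at 140 to 503 CPM in KO and 75.2 to 385 CPM in WT. Leydig cell markers summed to 5.04 to 15.8 CPM in KO and 4.93 to 9.34 CPM in WT, with Insl3 at 0 in every library and none of 3 tested genes called. Macrophage and leukocyte markers summed to 1.97 to 8.35 CPM in KO and 1.51 to 5.90 CPM in WT, and erythroid markers to 0.827 to 6.52 CPM in KO and 1.64 to 5.74 CPM in WT, with no call. Endothelial markers summed to 21.6 to 39.2 CPM in KO and 10.1 to 42.5 CPM in WT, and 1 of 6 tested rose. Markers of undifferentiated spermatogonia summed to 1211 to 2470 CPM in KO and 607 to 2575 CPM in WT, and 8 of 10 rose. Markers of differentiating spermatogonia summed to 762 to 3183 CPM in KO and 670 to 3576 CPM in WT, and of 8, 3 rose and 3 fell. Pan-germ-cell markers, Ddx4 and Dazl among them, summed to 4605 to 5461 CPM in KO and 3200 to 5950 CPM in WT, and of 8, 5 rose and 2 fell.

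The gap between genotypes was then tested at each time. At 0 h, before retinoic acid, 0 members were called with edgeR and 0 with DESeq2, 2 had an unadjusted p under 0.05, and 0% of all genes were called. Without a test, both KO libraries lay above both WT libraries for 14 of 39 members at 0 h, where 13.2% of features with a read did. The same held for 24 members at 12 h (13.9% of features), 15 at 18 h (12.5%), 18 at 48 h (13%), 17 at 72 h (14.7%), 16 at 96 h (12.7%) and 21 at 120 h (17%). These counts include untested members, and at 72, 96 and 120 h 1 read in a shallow KO library could suffice. Hoxa6 at 72 h was counted on 1 read in each KO library, and Hoxb1 at 96 h on 1 read in the shallow library. Both KO libraries lay below both WT libraries for 1 member at 0 h (13.5% of features), 2 at 12 h (16.3%), 2 at 18 h (19.9%), 1 at 48 h (15.6%), 1 at 72 h (14.6%), 2 at 96 h (11.9%) and 1 at 120 h (16.2%). At 12 h 4 of the 23 tested members rose in KO (Hoxb4, Hoxb7, Hoxb8 and Hoxc4), where 1.08% of all tested genes rose. At 18 h 4 rose (Hoxb3, Hoxb4, Hoxb8 and Hoxc4), where 3.11% did. At 48 h only Hoxb4 was called (0.291%), at 72 h Hoxb4 and Hoxc4 (2.58%), and at 96 h 5 members (Hoxb1, Hoxb3, Hoxb4 and Hoxc4 among them; 3.32%). At 120 h 8 members rose (Hoxa7, Hoxb2, Hoxb3, Hoxb4, Hoxb8, Hoxb9 and Hoxc4 among them; 8.54%). No member was called lower at any time, while 0.097% (12 h), 1.04% (18 h), 0.0171% (48 h), 2.12% (72 h), 1.15% (96 h) and 6.88% (120 h) of all genes were.

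Of the members called at 120 h, Hoxb3 had the largest fold change. It had 9.30 and 11.7 CPM in KO libraries at 120 h, against 0.631 and 0.747 CPM in WT libraries, a log2 fold change of 3.76 ± 0.57 (edgeR adjusted p = 0.000216). Hoxb4 had 12.0 and 15.5 CPM in KO at 120 h, against 2.02 and 2.62 CPM in WT (2.42 ± 0.43, edgeR adjusted p = 0.000855). These calls passed with each single library left out, and every other call at a single time was lost without at least 1 library. Hoxc4 at 120 h, for example, was lost only without KO replicate 1 of that time (adjusted p = 0.339). Hoxb1 at 96 h had 7 and 1 reads in KO and 0 in both WT libraries, and the lower 95% exact limit of the ratio, KO over WT, was 2.95 (counting error only).

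Without the 3 shallow KO libraries 13 single-time calls were made, against 24 with them, including 1 at 96 h (Hoxb4) and 4 at 120 h (Hoxb2, Hoxb3, Hoxb4 and Hoxc4), while the same 17 members remained called for the mean. Without KO replicate 1 at 48 h, the KO library with the most Stra8, 15 of the 24 single-time calls remained, including 0 at 48 h, 1 at 96 h (Hoxb4) and 6 at 120 h. Hoxb4 at 48 h then missed the threshold (log2 fold change 2.28, edgeR adjusted p = 0.200). For the mean without this library, 15 of the 17 mean calls remained, and Hoxb2 and Hoxb5 were lost.

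**Figure D4:**
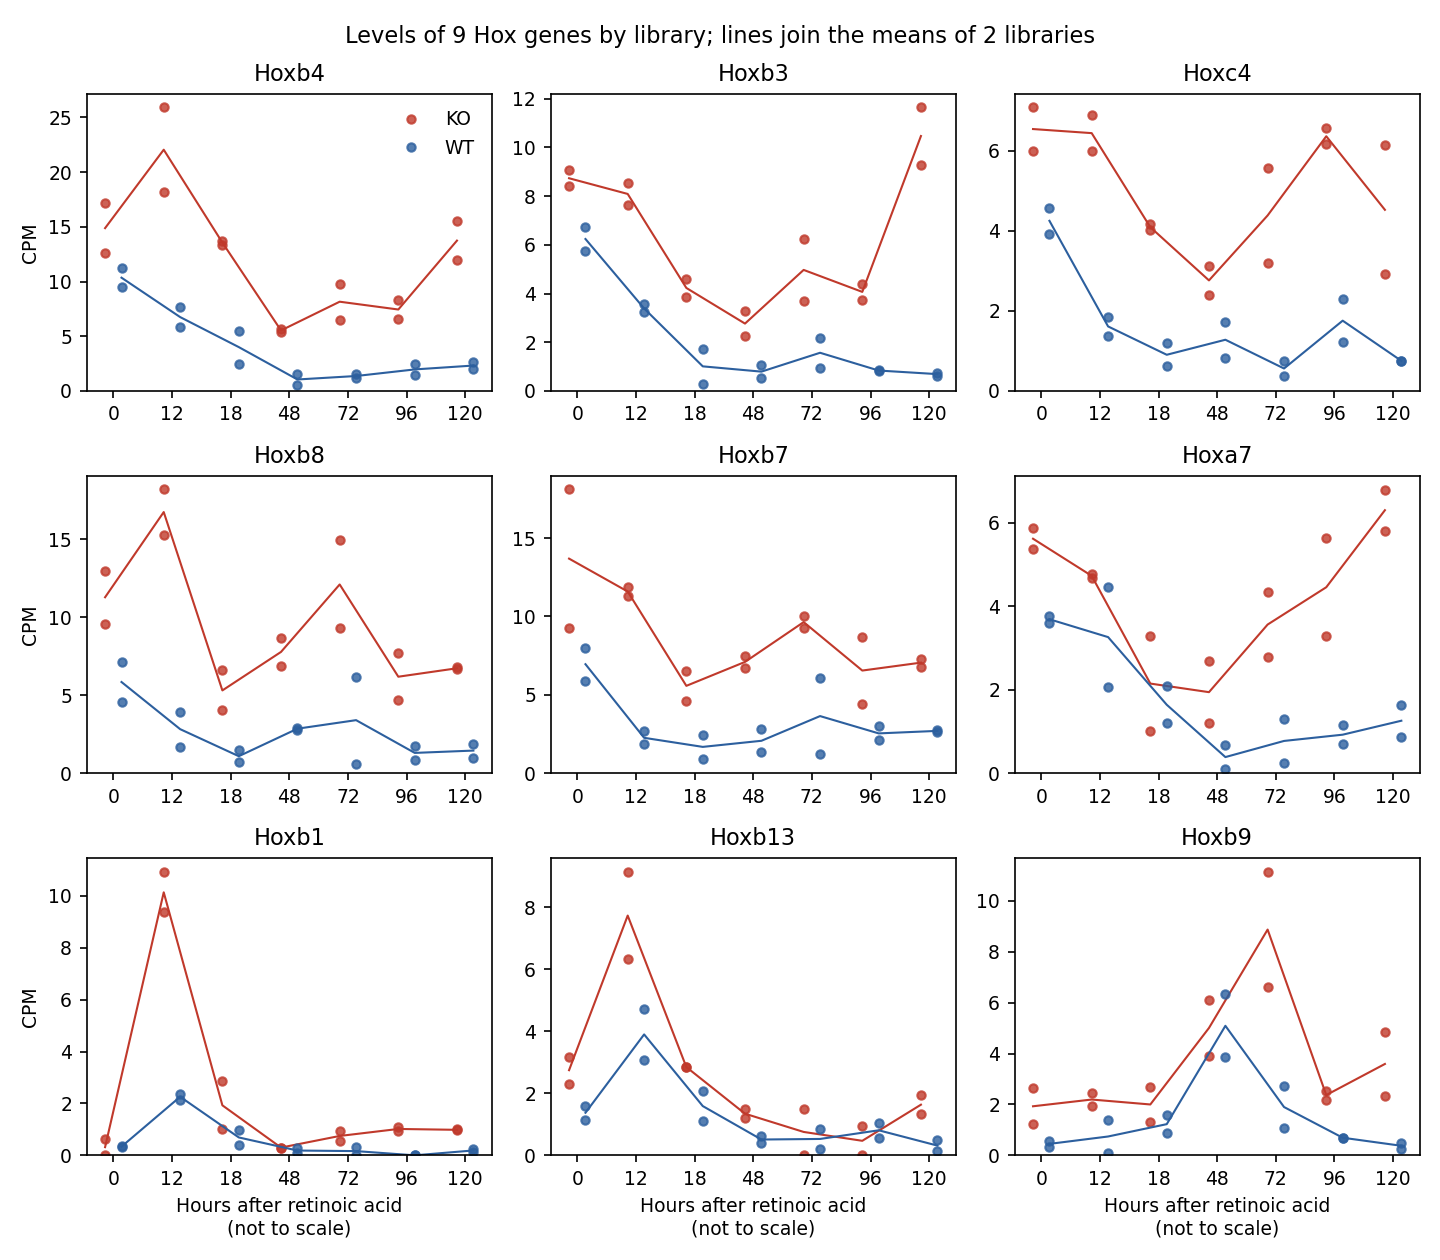
CPM of 9 Hox genes by hours after retinoic acid, evenly spaced and not to scale; points are libraries, lines join the means of 2 libraries, and KO points are drawn left of WT points. Hoxb1 and Hoxb13 peak at 12 h in both genotypes, Hoxb9 is highest at 72 h in KO and at 48 h in WT, and the means of the other 6 are lower at later times than at 0 h in WT.

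Hoxb1 (chr11:96365752-96368256, plus strand), an early retinoic acid target needed for hindbrain segment identity, rose at 12 h in both genotypes. It had 10.9 and 9.37 CPM at 12 h in KO, against 0.631 and 0 CPM at 0 h. At 18 h it had 1.00 and 2.85 CPM in KO, still above both 0 h libraries, and at 48 h 0.298 and 0.299 CPM. The log2 fold change at 12 h was 4.61 ± 0.80 in KO (edgeR adjusted p = 0.000762), and the call passed with each library left out. In WT it had 2.37 and 2.15 CPM at 12 h, against 0.343 and 0.328 CPM at 0 h (2.70 ± 0.82, edgeR adjusted p = 0.0347). The WT call was lost with DESeq2 (adjusted p = 0.0611) and in a fit on WT libraries alone (edgeR adjusted p = 0.1205). It was also lost without the 3 shallow KO libraries and without any 1 of 6 libraries. The mean call of Hoxb1 between genotypes (log2 fold change 2.04 ± 0.42, edgeR adjusted p = 0.000646) was lost without KO replicate 1 at 0 h, which left a KO library with 0 reads.

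Hoxa5 was also called at 12 h in KO. It had 2.46 and 1.65 CPM there, against 0.105 and 0.245 CPM at 0 h, which rests on 24 and 2 reads (ratio 14.9, 95% exact interval 3.70 to 129.9, counting error only; edgeR adjusted p = 0.0374). Hoxa5 missed the threshold without the filter on low counts (adjusted p = 0.0862), without the 3 shallow KO libraries (adjusted p = 0.0549) and without any 1 of 12 libraries. In WT Hoxa5 had 1.08 and 1.23 CPM at 12 h, against 0 and 0.328 CPM at 0 h (log2 fold change 2.88 ± 1.07, edgeR adjusted p = 0.0942). In all, 3 of the 23 tested members rose at 12 h in KO, where 4.13% of all tested genes rose. In WT 2 rose, where 5.36% did. None fell in KO or WT, against 4.44 and 5.53% of all genes. At 18 h in KO 1 member rose, where 3.81% of all genes did, and none fell, against 5.11%.

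**Figure D5:**
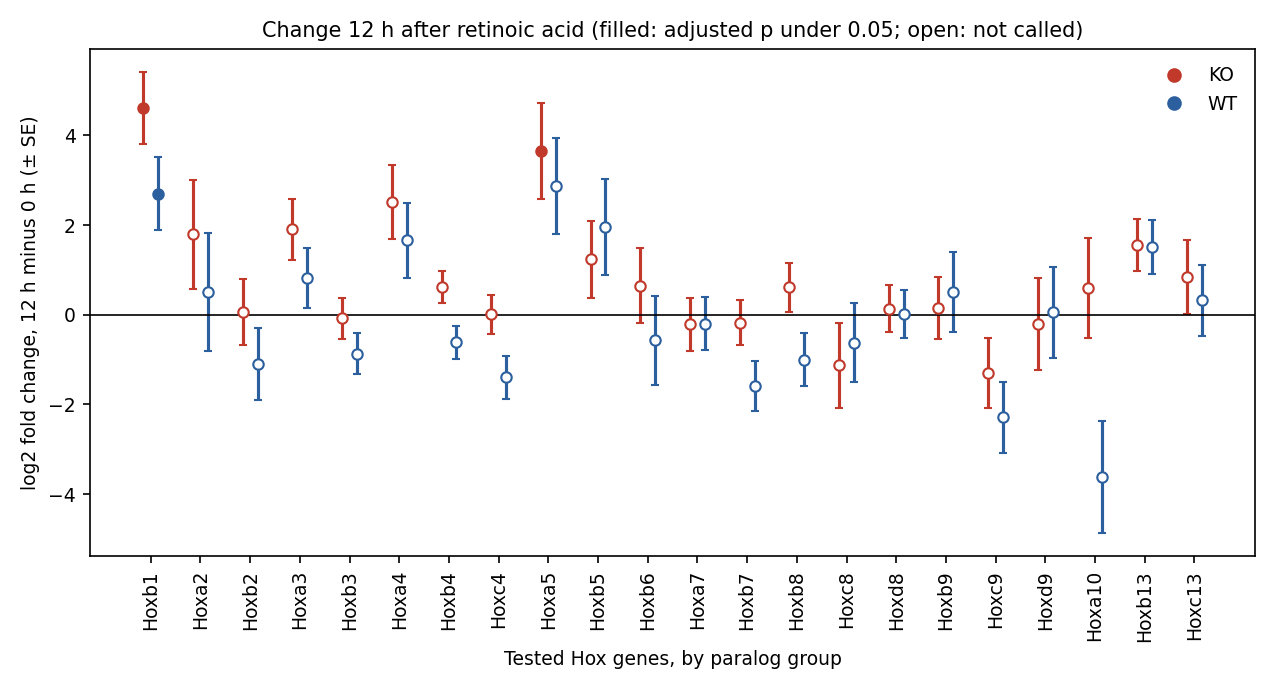
Log2 fold change 12 h after retinoic acid, 12 h minus 0 h, for tested Hox genes in order of paralog group. KO is drawn left of WT, and bars are ± 1 approximate SE. Filled points passed the adjusted threshold of 0.05. Filled points are Hoxb1 in both genotypes and Hoxa5 in KO.

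Summed over paralog groups 1 to 4, members had 88.7 and 74.1 CPM at 12 h in KO, against 35.0 and 49.0 CPM at 0 h. In WT the same sum was 25.7 and 34.8 CPM at 12 h, against 34.0 and 25.6 CPM at 0 h, so the WT libraries of the 2 times overlapped. Other low-numbered Hoxa genes had positive estimates at 12 h that missed the threshold in the fit on all count columns. Hoxa4 was at 2.51 ± 0.82 in KO (edgeR adjusted p = 0.0584) and 1.66 ± 0.83 in WT (adjusted p = 0.234), and in KO it passed with the reads recovered from the deposited CPM in place of the 3 shallow libraries. Hoxa3 was at 1.90 ± 0.69 in KO (adjusted p = 0.0873) and 0.82 ± 0.67 in WT (adjusted p = 0.542). At the far end, Hoxb13 was at 1.56 ± 0.58 in KO (edgeR adjusted p = 0.0996) and 1.51 ± 0.60 in WT (adjusted p = 0.121). Hoxb13 changed over the whole course in both genotypes (edgeR adjusted p = 0.00746 in KO and 0.00141 in WT), with its highest mean at 12 h in each.

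Later in the course, several Hoxb genes and Hoxc4 fell in WT cells. The comparisons with 0 h share the 0 h libraries, and their values are given side by side. Against 0 h, 7 of the 23 tested members fell at 18 h in WT, where 6.87% of all tested genes fell. They were Hoxb2, Hoxb3, Hoxb4, Hoxb7, Hoxb8, Hoxc4 and Hoxc9. No member rose at 18 h, against 5.07% of all genes. The later counts are of the same 23, and no test compared the members with all genes. At 48 h 7 fell (Hoxa7, Hoxb2, Hoxb3, Hoxb4, Hoxb7, Hoxc4 and Hoxc9; 6.68% of all genes), at 72 h 5 (Hoxa7, Hoxb3, Hoxb4, Hoxc4 and Hoxc9; 6.33%), at 96 h 5 (Hoxa7, Hoxb3, Hoxb4 and Hoxb8 among them; 14.1%) and at 120 h 5 (Hoxb2, Hoxb3, Hoxb4, Hoxb8 and Hoxc4; 14.7%). In a fit on the WT libraries alone, 14 of the 32 calls against 0 h were made, those of Hoxb3 at 18, 48, 96 and 120 h and of Hoxb4 at 48, 72, 96 and 120 h among them. None rose at 72, 96 or 120 h, where 6.55, 12.6 and 14.2% of all genes rose. The summed level of the 39 genes in WT was 23.0 and 17.4 CPM at 120 h, against 68.0 and 50.6 CPM at 0 h. Markers of several cell types fell at 120 h in WT as well: 9 of 10 of undifferentiated spermatogonia, 4 of 8 pan-germ-cell, 3 of 6 endothelial, 3 of 11 myoid and stromal and 1 of 12 Sertoli cell markers, and none of these rose. Of 8 markers of differentiating spermatogonia, 3 rose and 1 fell, and no tested Leydig cell, macrophage and leukocyte or erythroid marker was called. The part of these markers in the Hox result was not tested.

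Hoxb4 in WT started at 11.2 and 9.50 CPM (0 h). The later levels were 5.82 and 7.67 (12 h), 2.48 and 5.52 (18 h), 1.55 and 0.532 (48 h), 1.20 and 1.52 (72 h), 1.49 and 2.43 (96 h), 2.02 and 2.62 CPM (120 h). Every library from 12 h on was below both 0 h libraries. The log2 fold change was -3.24 ± 0.44 at 48 h (edgeR adjusted p = 3.69e-05) and -2.10 ± 0.41 at 120 h (edgeR adjusted p = 0.000519). Hoxb3 in WT had 0.631 and 0.747 CPM at 120 h, against 6.75 and 5.73 CPM at 0 h (-3.09 ± 0.55, edgeR adjusted p = 0.000224). Hoxc4 had 0.757 and 0.747 CPM at 120 h, against 4.57 and 3.93 CPM at 0 h (-2.42 ± 0.52, edgeR adjusted p = 0.00119). Hoxb3 and Hoxb4 passed without any 1 library at 48, 96 and 120 h.

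Hoxb9 took another course. In WT it had 6.32 and 3.86 CPM at 48 h, against 0.572 and 0.328 CPM at 0 h (log2 fold change 3.41 ± 0.75, edgeR adjusted p = 0.0037), and was back at 0.252 and 0.498 CPM by 120 h. It was the one member that rose after 18 h in WT (6.15% of all genes rose at 48 h), and the call passed with each library left out. In KO it had 6.11 and 3.89 CPM at 48 h, then 6.61 and 11.1 CPM at 72 h, against 2.63 and 1.22 CPM at 0 h; the estimate at 72 h was 2.03 ± 0.68 (edgeR adjusted p = 0.166).

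In KO, 2 of the 23 tested members fell at 48 h, where 2.74% of all genes fell. No member was called at 72, 96 or 120 h, where 0.491, 1.75 and 0.953% of all genes were called in either direction. DESeq2 called 0, 0 and 0 members at these times, and 1, 3 and 0 had an unadjusted p under 0.05. Hoxb4 had 5.67 and 5.39 CPM at 48 h, against 12.6 and 17.1 CPM at 0 h (-1.37 ± 0.39, edgeR adjusted p = 0.0471), and 12.0 and 15.5 CPM at 120 h. Hoxb2 had 0.447 and 0 CPM at 48 h, against 3.68 and 6.37 CPM at 0 h, which rests on 3 and 61 reads (ratio 0.0665, 95% exact interval 0.0134 to 0.204; edgeR adjusted p = 0.0292). Without KO replicate 1 at 48 h neither passed (adjusted p = 0.327 for Hoxb4 and 0.198 for Hoxb2), and the call of Hoxb4 was lost without any 1 of 16 libraries.

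Over the whole course, 14 of the 23 tested members changed in WT, where 37.3% of all tested genes did. In KO 5 changed (Hoxa5, Hoxb1, Hoxb4 and Hoxb13 among them), where 15.8% did. The difference between the courses was tested directly as genotype by time interaction. There, edgeR called 0 members and 0.108% of all genes, 2 members had an unadjusted p under 0.05, and DESeq2 called 0 members. The lower counts in KO are therefore not shown to be a different course, and 3 of its later groups include a shallow library.

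Genes that work with the Hox clusters were counted from lists, to be read against the 17.4% of all tested genes that rose and the 20.1% that fell in KO relative to WT. At 120 h against 0 h in WT, 14.2% of all tested genes rose and 14.7% fell. Of 9 TALE partners (PBX, MEIS and PKNOX proteins), none fell in KO relative to WT, averaged over the times (median log2 fold change 0.066, against -0.022 over all tested genes). At 120 h against 0 h in WT, of the 9 partners none rose, and Meis1 (-1.74 ± 0.53, edgeR adjusted p = 0.0165) was among those that fell.

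Of 16 upstream activators (retinoic acid receptors, CDX factors, hindbrain regulators and trithorax proteins), 14 were tested (median -0.017, KO relative to WT). In KO relative to WT 2 rose, the receptors Rarg (0.70 ± 0.07, edgeR adjusted p = 8.38e-08) and Rara (0.30 ± 0.10), and 3 fell, Gdf11 (-0.57 ± 0.15), a signal that sets the onset of posterior Hox genes, and the trithorax group histone methyltransferases Kmt2a (-0.52 ± 0.13) and Ash1l (-0.33 ± 0.07). At 120 h against 0 h in WT, Gdf11 (1.72 ± 0.37) and Men1 (0.89 ± 0.18) rose. Of the 14 tested, 2 rose and 1 fell at 12 h in KO, where 4.13% of all tested genes rose and 4.44% fell. In WT 3 rose and 2 fell at 12 h, against 5.36 and 5.53% of all genes. At 12 h Rarb, a direct retinoic acid target, rose by 4.40 ± 0.75 on the log2 scale in KO and by 6.17 ± 0.83 in WT. Cdx1, a homeodomain activator of Hox genes, rose by 2.59 ± 0.65 in KO and 3.08 ± 0.65 in WT.

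Of 24 polycomb genes, 2 rose in KO relative to WT, where 17.4% of all tested genes did, and 5 fell, where 20.1% did (median -0.013). Cbx7, a reader of the polycomb mark (0.43 ± 0.08, edgeR adjusted p = 0.000275), and Rnf2 (0.23 ± 0.09) rose. The 4 lower ones with the largest change were Suz12, a core subunit of PRC2 (-0.48 ± 0.08, edgeR adjusted p = 8.97e-05), Ring1 (-0.36 ± 0.12), Rbbp4 (-0.32 ± 0.07) and Phc3 (-0.30 ± 0.11); the fifth was Bmi1. At 120 h against 0 h in WT 7 polycomb genes rose (14.2% of all genes), among them Ring1 (1.83 ± 0.31), Pcgf2 (1.60 ± 0.23) and Ezh2 (1.21 ± 0.22), and Cbx7 fell (-1.40 ± 0.22).

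Genes and transcripts that flank the clusters moved in both directions. Of 22 listed, 17 were in the tables and 12 were tested (median -0.011, KO relative to WT). In KO relative to WT, Calcoco2 (3.22 ± 0.64), Halr1 (1.54 ± 0.30) and Ttll6 (1.23 ± 0.23) rose, and Snx10 (-0.36 ± 0.09) and Hibadh (-0.32 ± 0.08) fell. Halr1, a noncoding RNA beside the Hoxa cluster, had 0.898, 1.92 and 5.79 CPM in KO libraries and 0.115, 0.582 and 2.29 CPM in WT libraries. Ttll6 and Calcoco2, which lie near Hoxb13, had 1.68, 4.12 and 6.61 CPM (Ttll6) and 0, 0.742 and 1.94 CPM (Calcoco2) in KO and 0.498, 1.48 and 3.93 CPM (Ttll6) and 0, 0 and 0.655 CPM (Calcoco2) in WT. At 120 h against 0 h in WT, Hibadh rose (0.62 ± 0.19), and Halr1 (-2.64 ± 0.78) and Skap1 (-1.42 ± 0.49) fell. Calcoco2 had a median of 0 in WT, so its fitted fold changes depend on the small count added in the fit.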

How the data were processed

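Per the labels' protocols, polyA RNA of sorted germ cells was made into libraries with NEBNext and Ion Total RNA-seq kits and sequenced on an Ion Proton. The submitters' processing notes name Bowtie, TopHat, Cufflinks and mm10; no source used here names the counter or says whether it used strand. The authors deposited raw read counts per gene in 2 tables and values named FPKM that proved to be CPM of counts. Of the 28 deposited CPM columns, 25 matched a count column. In WT the match had the same replicate number, and in KO every match had the other number. Which KO numbering is right is not stated, and the numbers used here are those of the counts. The 3 other CPM columns (KO at 72, 96 and 120 h) gave whole reads within 0.1 read (the recovered reads). They served as an alternative to the shallow counts.

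CPM was computed as count over column total, after 27 date-like rows were left out. edgeR 4.0.16 (quasi-likelihood, robust, TMM scaling, filterByExpr) was fitted on all 28 libraries with a mean for each of 14 groups, keeping 17519 genes, with Benjamini-Hochberg adjustment over all of them; DESeq2 1.42.0 was an alternative. The scripts were tested on simulated data. Genes were matched to GENCODE vM21 and promoters to RefSeq. Every member called in any comparison, or among the 12 with the highest mean CPM, was described, and up to 4 called genes each way per list were named; a few genes are counted but not reported here by name or value. The members and lists were chosen with earlier results of these data known. Same-numbered libraries deviated together in WT (correlations 0.266 to 0.491) and less regularly in KO (-0.12 to 0.533). Between genotypes at the same time they did not (-0.0935 to 0.0293). The main fit did not use the numbers, so its WT comparisons over time ignore the deviation that same-numbered WT libraries share. Counts from a fit with the replicate number as a block are given below. Intervals and floors cover counting error only.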

Additional observations from a re-analysis of the deposited data

How the results depend on the processing

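For KO against WT as the mean over the times, 16 to 19 members were called under all other settings tried, against 17, and 12 to 19 with 1 library left out. Calls at single times numbered 24, 13 without the 3 shallow KO libraries, and 14 to 31 with 1 library left out. WT calls against 0 h numbered 32, 14 in a fit on WT libraries alone, and 13 to 40 with 1 library left out. KO calls against 0 h numbered 6, 11 in a fit on KO libraries alone, 10 with a replicate block whose KO numbers were crossed, and 1 to 7 with 1 library left out. Members with any change over time numbered 14 in WT (8 in WT alone, 10 to 14 with 1 library left out) and 5 in KO (8 in KO alone, 10 without the filter on low counts, 2 to 8 with 1 library left out). The interaction gave 0 members in every setting run (1 genotype alone cannot give it) and 0 to 0 with 1 library left out, while over all genes edgeR called 19 and DESeq2 292. With the replicate number as a block, the counts were 17 for the mean, 27 at single times, 36 in WT and 9 in KO against 0 h, 14 and 7 for any change in WT and KO, and 0 for the interaction; Hoxa4 at 12 and 18 h in KO was called there. Of the single calls named, 14 were lost without the 3 shallow KO libraries, 18 in WT alone, 3 with DESeq2, 3 without the filter, 1 without TMM and 1 with the recovered reads; no named Hox result changed direction. With the recovered reads, 6, 7 and 8 members were called between genotypes at 72, 96 and 120 h, against 2, 5 and 8. Over all genes, 1414, 941 and 3336 of 17307 were called at these times in that setting. An arm left with 1 library is assumed to vary like the other groups. Most members rest on few reads.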
